A study of Mus musculus with 55 samples.

Results

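The 10 genes described here encode the constant parts of the T cell receptor (Trac, Trbc1, Trbc2, Trdc, Tcrg-C1 and Tcrg-C2) and the signalling chains that travel with it (Cd3d, Cd3e, Cd3g and Cd247). They were chosen by gene symbol, and all 10 were found among the 47606 rows of each of 2 tables of normalized counts, 1 table per host. The tumours came from BBN963, a mouse bladder cancer line, injected under the skin. The hosts were C57BL/6 (B6) mice, whose immune system is intact, or NSG mice, an immunodeficient strain without T, B or NK cells that keeps macrophages and other myeloid cells.

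Each B6 mouse received 3.0 M cells. Vehicle and entinostat mice were assigned to a group once the tumour reached 200 mm3, and no such volume is stated for baseline mice. Mice of the entinostat group ate chow with entinostat (12 mg/kg), a drug that blocks class I HDACs. Entinostat tumours of B6 mice were taken at 100 mm3, and no collection volume is stated for the other B6 groups. Tumour size and drug treatment therefore cannot be told apart in B6 mice. For NSG mice neither the dose nor a volume is stated. The RNA libraries comprised 4 baseline, 6 vehicle and 5 entinostat tumours from B6 mice and 5 of each from NSG mice. Vehicle tumours are also called non-treated in the sample titles. Another B6 entinostat tumour was not analysed here. Each library is taken as 1 tumour, and the labels do not say whether each came from its own mouse, so p-values measure the spread between these tumours.

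Every T cell carries 1 of 2 kinds of receptor. Alpha-beta T cells pair a Trac-encoded alpha chain with a beta chain ending in Trbc1 or Trbc2, and most of them recognise peptides held by MHC molecules. Gamma-delta T cells pair a delta chain ending in Trdc with a gamma chain ending in Tcrg-C1, Tcrg-C2 or Tcrg-C4, and many of them live in skin and other barrier tissues. Neither receptor can signal on its own: CD3 delta, epsilon and gamma and the zeta chain (Cd247) carry its signal through ITAM motifs (short sequences phosphorylated by Src kinases), which recruit the kinase Zap70. CD3 chains are therefore shared by both kinds of T cell, while the constant chains tell them apart. Unrearranged constant regions can also be transcribed, and zeta chain is also made by NK cells.

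On the mouse build GRCm38 (mm10), RefSeq places Trdc (chr14:54142851-54146108) inside the alpha locus, 74412 bases before Trac (chr14:54220521-54224198). Trbc1 (chr6:41538219-41539665) and Trbc2 (chr6:41546730-41548181) are near-identical copies 7064 bases apart. Tcrg-C1 (chr13:19214103-19216618) and Tcrg-C2 (chr13:19305060-19307551) are also close copies, named Trgc1 and Trgc2 in RefSeq. How reads shared by copies were assigned is not given in the sources used here, so the split between copies is uncertain. Cd3g (chr9:44969572-44980431) and Cd3d (chr9:44981769-44987052) lie 1337 bases apart on opposite strands, and Cd3e (chr9:44998735-45009663) follows 11682 bases further on. Cd247 (chr1:165779952-165871153) shares part of its interval with Pou2f1 in RefSeq.

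The promoters of the 4 signalling chains are shown because 3 of these genes are neighbours that nevertheless changed by different factors. Each run holds 250 bases before and 50 bases after the start site in RefSeq GRCm38.p6. Capitals mark E-box matches (CANNTG, the letters bound by E proteins), Runx matches (TGNGGT) and cyclic AMP response element matches (TGACGT), searched on both strands.
Cd3d: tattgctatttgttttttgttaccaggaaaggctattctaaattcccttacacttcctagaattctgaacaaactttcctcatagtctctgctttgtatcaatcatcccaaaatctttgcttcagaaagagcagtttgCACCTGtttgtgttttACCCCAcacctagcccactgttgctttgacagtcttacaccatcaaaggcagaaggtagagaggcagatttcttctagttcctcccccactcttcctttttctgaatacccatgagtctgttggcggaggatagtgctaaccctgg
Cd3e: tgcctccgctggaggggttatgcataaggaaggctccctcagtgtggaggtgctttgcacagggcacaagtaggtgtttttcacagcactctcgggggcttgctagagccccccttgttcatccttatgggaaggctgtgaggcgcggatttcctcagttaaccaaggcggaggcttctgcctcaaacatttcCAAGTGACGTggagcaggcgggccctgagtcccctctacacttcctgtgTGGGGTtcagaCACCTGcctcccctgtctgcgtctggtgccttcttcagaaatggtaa
Cd3g: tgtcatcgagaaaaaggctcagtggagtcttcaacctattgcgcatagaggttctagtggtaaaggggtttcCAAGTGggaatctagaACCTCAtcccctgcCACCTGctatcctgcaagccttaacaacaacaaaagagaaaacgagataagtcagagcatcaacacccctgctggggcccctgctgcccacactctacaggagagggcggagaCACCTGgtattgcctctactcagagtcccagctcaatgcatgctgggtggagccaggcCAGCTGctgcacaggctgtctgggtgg
Cd247: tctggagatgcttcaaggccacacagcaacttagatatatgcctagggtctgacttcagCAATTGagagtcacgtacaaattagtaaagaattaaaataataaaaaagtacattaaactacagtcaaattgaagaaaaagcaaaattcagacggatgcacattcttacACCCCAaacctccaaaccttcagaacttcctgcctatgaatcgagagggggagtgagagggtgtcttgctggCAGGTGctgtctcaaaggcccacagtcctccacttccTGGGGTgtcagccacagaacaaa
The Cd3d window runs over chr9:44981536-44981835 on the plus strand, and that of Cd3g over chr9:44980382-44980681 on the minus strand. The Cd3e window covers chr9:45009562-45009861 on the minus strand, and that of Cd247 chr1:165788431-165788730 on the plus strand. The Cd247 window lies inside the gene interval given above, so it surrounds an internal start site and not the start of that interval. All 4 windows held at least 1 E-box match, a feature of 72.3% of the 32851 promoters of this length, and at least 1 Runx match, found in 45.8%. The Cd3g window had 4 E-box matches, those of Cd3e and Cd247 had 2 each and that of Cd3d had 1. The Cd3e window alone among these 4 held the cyclic AMP response element letters, at 53 bases before the start and partly within the E-box match CAAGTG, and 7.51% of all promoters hold them. These matches describe the letters in the windows.

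All values below are DESeq2-normalized counts as deposited, and each host's table was normalized on its own. A gene was tested where its value reached 10 in at least 4 B6 or 5 NSG libraries. Tests are limma fits of log2(value + 1) over all tested genes, with Benjamini-Hochberg adjustment, and a gene was called where the adjusted p was under 0.05. All 10 chains reached the test level in at least 5 B6 tumours outside the entinostat group. A gene that reached it only by counting entinostat tumours had to be higher there, so its values are given as a description with no test. Fold changes on this scale understate those of genes with low values. Libraries held an estimated 11.3 to 51.0 M reads, the smallest being NSG_Entinostat_319 and, in B6 mice, entinostat 418 (13.3 M). In these bulk samples, more T cells and more receptor RNA per T cell cannot be told apart.

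The whole tissue differed between the B6 groups. The summed level of 8 epithelial genes was 1129 to 4725 in B6 entinostat tumours against 135410 to 601667 with vehicle, and all 8 fell. Summed levels of 10 macrophage genes were 188423 to 258445 with entinostat against 4820 to 50281 with vehicle. Those of 8 fibroblast genes were 1051674 to 1533319 against 2454 to 471802. All 18 of these genes were called higher, where 29.9% of all tested genes were called higher and 26.2% lower. Skeletal muscle genes summed to over 10000 in 3 B6 libraries (baseline 415, entinostat 413 and entinostat 423) and to at most 2001.5 in the others. B cell and plasma cell genes summed to 290 to 21274 with entinostat and to 5.0 to 911 with vehicle. Lymph node and high endothelial venule genes, which mark the tissue where T cells enter and gather, summed to 976.5 to 4258 with entinostat, 119 to 640 with vehicle and 151.5 to 436 at baseline. In NSG tumours, whose hosts lack T and B cells, the same genes summed to 1164 to 2681, 499 to 2321 and 698 to 1168 in these groups. Ccr7, the homing receptor among them, rose by 3.14 ± 0.49 (SE, log2 scale, limma adjusted p = 8.26e-05) against vehicle, and Glycam1, made by the venules, read 38.4 to 143 with entinostat and at most 6.18 in the other B6 tumours. Adipocyte genes summed to 51940 to 147017 with entinostat and to at most 5920 in the other B6 tumours, and endothelial genes to 10102 to 15741 with entinostat and 625.1 to 17102 with vehicle. What these shifts in tissue make-up contribute to the receptor transcripts was not tested.

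In B6 mice, 9 of the 10 chains were higher in entinostat than in vehicle tumours and none was lower. Tcrg-C2 was the exception. By comparison, 29.9% of the 17053 genes tested were called higher and 26.2% lower. The median log2 fold change of the 10 chains was 1.85, against -0.01 for all tested genes. The gamma-delta chains Trdc and Tcrg-C1 had the highest fold changes, at 9.84-fold and 8.65-fold, and the 8 other chains ranged from 1.37-fold (Tcrg-C2) to 4.96-fold (Cd3d).

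**Figure D1:**
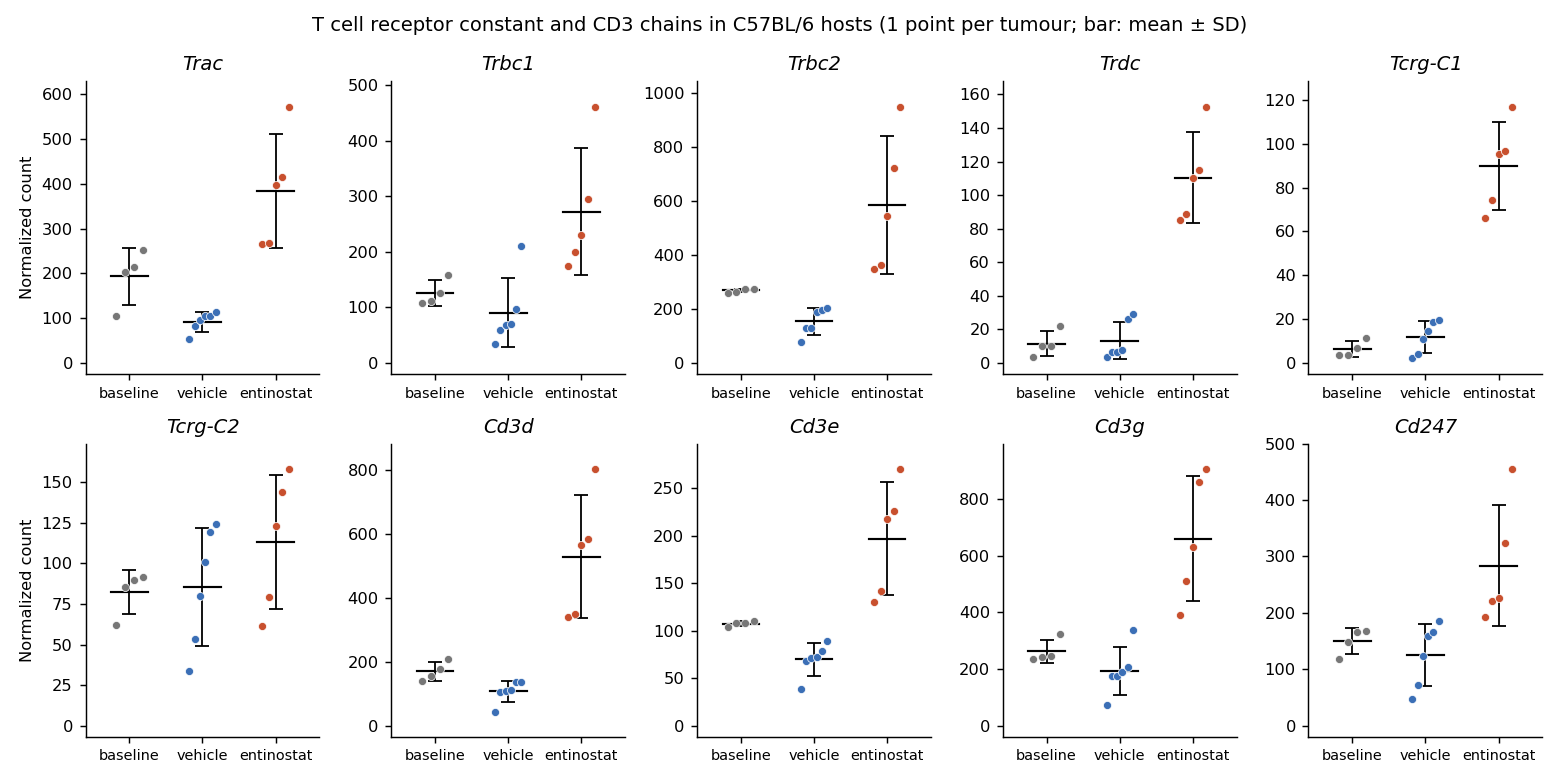
Normalized count of each receptor and CD3 chain (vertical axes, 1 scale per gene) in every B6 tumour of the baseline (n = 4), vehicle (n = 6) and entinostat (n = 5) groups. Points are tumours, and bars show the mean ± SD. Entinostat tumours lie above all vehicle tumours for 8 of the 10 chains, the exceptions being Trbc1 and Tcrg-C2, and for 19.5% of the 17053 genes tested.

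Trac, the alpha constant chain, read 104 to 252 in the 4 baseline tumours. In vehicle tumours it ranged from 52.6 to 113 with a median of 100.4, and in entinostat tumours it read 266 (411), 268 (413), 415 (418), 398 (421) and 572 (423). Every entinostat tumour exceeded every tumour of both other groups. The log2 fold change against vehicle was 2.03 ± 0.29 (SE), with a limma adjusted p of 4.37e-05.

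Trbc1 and Trbc2, the beta constant chains, were both called higher. Trbc2 ranged from 78.7 to 203 with vehicle and read 362, 348, 544, 721 and 949 in entinostat tumours 411, 413, 418, 421 and 423, with no overlap (log2 fold change 1.88 ± 0.30 SE, adjusted p = 9.32e-05 by limma). Trbc1 ranged from 34.3 to 210.4 with vehicle (median 69.5) and from 175 to 462 with entinostat, and its log2 fold change was 1.73 ± 0.39 (SE; adjusted p = 0.00151 by limma). The overlap came from vehicle tumour 424, whose Trbc1 stood far above the other 5 vehicle tumours, all under 98. The log2 ratio of Trbc1 to Trbc2 was -1.10 ± 0.22 (SD, n = 4) at baseline, -0.93 ± 0.62 (n = 6) with vehicle and -1.08 ± 0.19 (n = 5) with entinostat, and these groups overlapped.

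Trdc, the only constant chain of the delta receptor, was low outside the entinostat group. It read 10.3, 21.7, 10.3 and 3.66 in baseline tumours 415, 416, 419 and 426. Vehicle tumours fell into 4 with 3.75 to 7.59 and 2 (408 and 414) with 29.0 and 25.9. Entinostat tumours read 115, 88.7, 85.4, 110.3 and 153 (411, 413, 418, 421 and 423). The lowest entinostat tumour thus exceeded the highest vehicle tumour, and the log2 fold change was 3.30 ± 0.53 (SE; adjusted p = 0.000101 by limma).

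Tcrg-C1, the constant region used with the Tcrg-V4, Tcrg-V5, Tcrg-V6 and Tcrg-V7 segments, was also low outside the entinostat group. Its highest vehicle tumours were 402 and 410 (19.7 and 18.65), not 408 and 414 as for Trdc. It read 6.60, 11.5, 3.75 and 3.69 at baseline and 2.26 to 19.7 with vehicle, and 95.4, 66.1, 74.3, 116.9 and 96.5 with entinostat. The groups did not overlap, for a fitted log2 difference of 3.11 ± 0.50 (SE; adjusted p = 0.000115 by limma). Tcrg-C2, a second gamma constant region, read 61.7, 79.3, 144, 123 and 158 with entinostat, against 33.9 to 124 with vehicle and 62.2 to 92.0 at baseline. Its groups overlapped and it was not called (log2 fold change 0.45 ± 0.37 SE, limma adjusted p = 0.305). The log2 ratio of Tcrg-C1 to Tcrg-C2 was -2.93 ± 0.89 (SD, n = 6) with vehicle and -0.27 ± 0.61 (n = 5) with entinostat, without overlap. Among the other gamma constant regions, Tcrg-C4 averaged 15.7 with vehicle and 31.8 with entinostat and was not called (limma adjusted p = 0.0611), though against baseline, at 9.83, it was (limma adjusted p = 0.0194). Tcrg-C3 was at most 4.30 in every B6 tumour.

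Cd3d, the CD3 delta chain, showed the highest fold change of the signalling chains. It ranged from 42.9 to 137 with vehicle and read 341, 348, 585, 566 and 802 in entinostat tumours 411, 413, 418, 421 and 423, for a fitted log2 difference of 2.31 ± 0.31 (SE; adjusted p = 2.44e-05 by limma). Cd3g, the CD3 gamma chain, ranged from 74.0 to 339 with vehicle and from 391 to 905 with entinostat, and its log2 fold change was 1.83 ± 0.32 (SE; adjusted p = 0.000231 by limma). Cd3e, the CD3 epsilon chain present in every CD3 dimer, ranged from 38.3 to 89.1 with vehicle and read 130.2, 142, 226, 217 and 270 with entinostat, for a fitted log2 difference of 1.48 ± 0.27 (SE; adjusted p = 0.000279 by limma). None of the 3 overlapped between the groups. The log2 ratio of Cd3d to Cd3e was 0.56 ± 0.32 (SD, n = 6) with vehicle and 1.40 ± 0.10 (n = 5) with entinostat, and every entinostat tumour exceeded all vehicle and baseline tumours.

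Cd247, the zeta chain, had the smallest fold change of the called chains. It ranged from 47.4 to 186 with vehicle (median 140.8) and read 227, 220.2, 324, 193 and 455 with entinostat, for a fitted log2 difference of 1.25 ± 0.35 (SE; adjusted p = 0.00719 by limma). The groups did not overlap, but the gap was narrow, from 186 (vehicle 402) to 193 (entinostat 421). Without the 3 muscle-rich libraries Cd247 was no longer called (adjusted p = 0.0569), while 8 chains stayed called higher. Pou2f1, which shares part of its interval, ranged from 215 to 441 with entinostat and from 259 to 423 with vehicle, and its part in the Cd247 value was not tested.

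**Figure D2:**
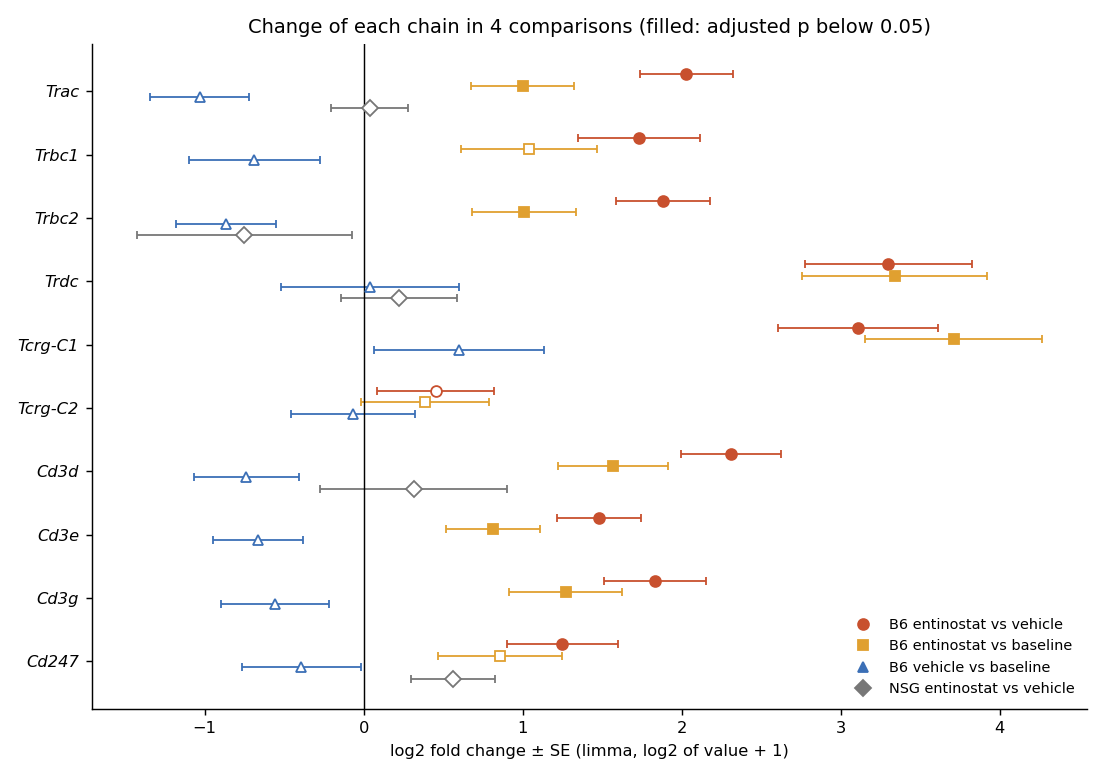
Log2 fold change (horizontal axis) with its SE for each chain in 4 comparisons from the all-gene limma fits. Filled symbols are called at an adjusted p under 0.05, open symbols are not, and 5 chains have no NSG symbol because they were not tested there. Trdc and Tcrg-C1 sit above 3 for entinostat against both B6 comparison groups, while the other chains sit lower against baseline than against vehicle.

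Against baseline tumours, 7 of the 10 chains were called higher in B6 entinostat tumours and none lower, where 29.1% of all tested genes were called higher. The median log2 fold change was 1.03. Among the gamma-delta chains, Tcrg-C1 had 3.71 ± 0.56 (SE, limma adjusted p = 7.69e-05) and Trdc 3.34 ± 0.58 (adjusted p = 0.00026). Of the alpha-beta and CD3 chains, Cd3d rose by 1.57, Cd3g by 1.27, Trbc2 by 1.01, Trac by 0.999 and Cd3e by 0.81 on the log2 scale. Trbc1 (1.04, adjusted p = 0.0511), Cd247 (0.86, adjusted p = 0.0746) and Tcrg-C2 (0.39, adjusted p = 0.438) were not called. All chains but Tcrg-C2 lay above every baseline tumour in all 5 entinostat tumours, as did 26.8% of all tested genes. Under cyclic loess scaling Trac (0.76, adjusted p = 0.0534) and Cd3e (0.48, adjusted p = 0.169) were not called, and under quantile scaling Cd3e was not (0.59, adjusted p = 0.105). Without the muscle-rich libraries 4 chains were called, those lost being Trac, Trbc2 and Cd3e (adjusted p = 0.0608 to 0.127). Trac was also not called without baseline 426 (0.73, adjusted p = 0.0695), and leaving out any of 6 single tumours (baseline 415, 419 or 426, entinostat 418, 421 or 423) took Cd3e above the threshold (adjusted p = 0.0537 to 0.0758). Trbc1 was called without vehicle 405 or 424 or entinostat 411 (adjusted p = 0.0159 to 0.0439), and Cd247 without vehicle 424 (adjusted p = 0.0303). Trbc1 was also called with only the 2 groups fitted, with 5 added, with a filter of 50 or without trend and robust variance (adjusted p = 0.012 to 0.0496), and Cd247 with only the 2 groups fitted (adjusted p = 0.0216). This comparison shares its entinostat tumours with the one against vehicle.

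Between vehicle and baseline tumours no chain was called, and neither was any of the 17053 genes (0%), with 749 genes at an unadjusted p under 0.05 and a lowest adjusted p of 0.148. Fitted log2 differences of the alpha-beta and CD3 chains ran from -0.39 (Cd247) to -1.03 (Trac), each with an adjusted p of 1, and were 0.04 for Trdc and 0.60 for Tcrg-C1. All 6 vehicle tumours were below all 4 baseline tumours for Trbc2, Cd3d and Cd3e, which held for 0.440% of all tested genes. Trbc2 and Cd3e were tight at baseline, at 268 ± 7.21 and 107 ± 2.78 (SD, n = 4).

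The balance of delta to alpha receptor transcripts was taken as the log2 ratio of Trdc to Trac in each tumour. Since the values are not scaled by transcript length, only its change between groups can be read, not its size. It was -4.10 ± 0.63 (SD, n = 4) at baseline, -3.03 ± 0.88 (n = 6) with vehicle and -1.76 ± 0.40 (n = 5) with entinostat. All entinostat tumours lay above all baseline tumours, a 5.06-fold difference of the means. Against vehicle the difference was 2.42-fold and the groups overlapped, because vehicle tumours 408 (-1.83) and 414 (-1.99) reached the entinostat range of -2.27 to -1.20. The ratio of Tcrg-C1 to the sum of Trbc1 and Trbc2 moved alike, with means of -5.86, -4.47 and -3.17, and 4 of 5 entinostat tumours above every vehicle tumour. When Tcrg-C2 was added to the gamma side the groups overlapped, at -2.15, -1.35 and -2.01, so this balance depends on which gamma constant region is read. Trdc and Trac also had values in every NSG tumour, whose hosts lack T cells, averaging 42.2 and 56.8 with entinostat. Their ratio is therefore not a ratio of gamma-delta to alpha-beta T cells, and the source of these transcripts was not tested.

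**Figure D3:**
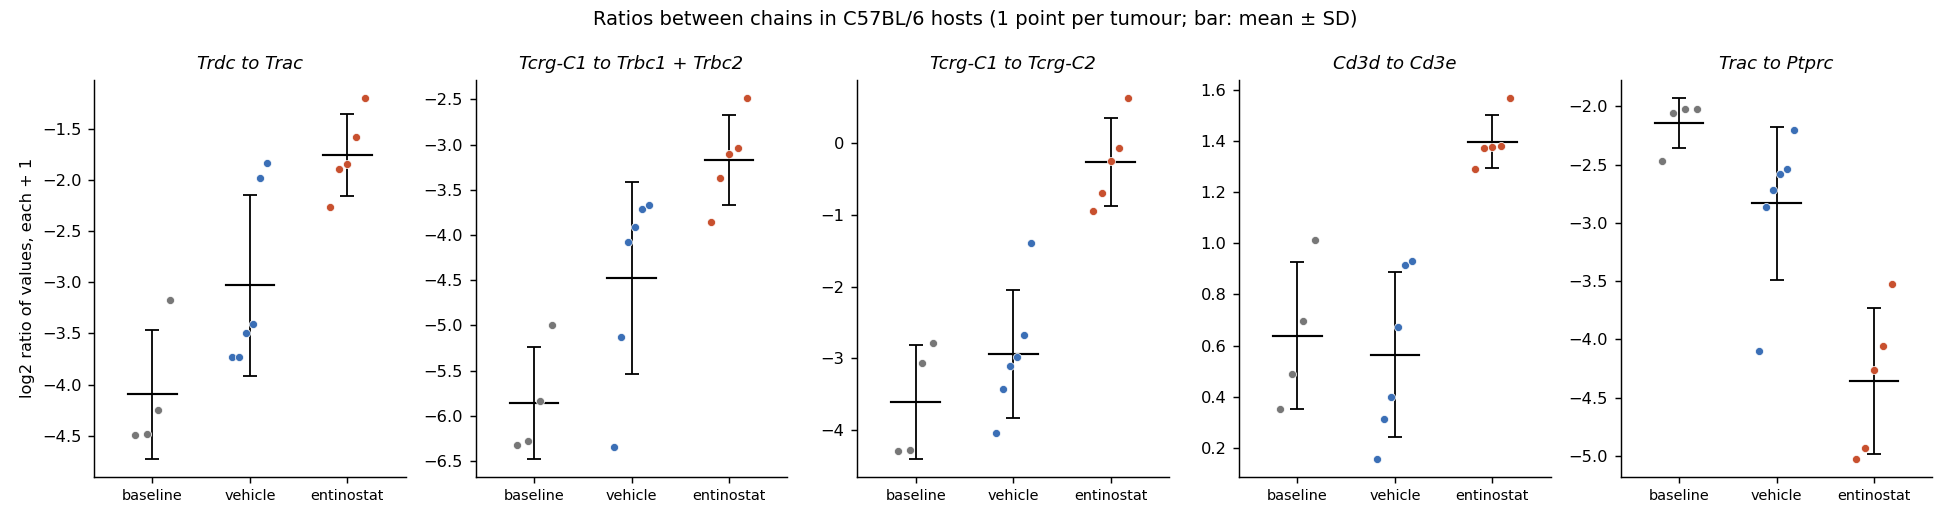
Log2 ratios of normalized counts, each plus 1 (vertical axes), in every B6 tumour, with bars for the mean ± SD of the baseline (n = 4), vehicle (n = 6) and entinostat (n = 5) groups. Tcrg-C1 to Tcrg-C2 and Cd3d to Cd3e separate entinostat from both other groups, Trdc to Trac overlaps with vehicle through 2 tumours, and Trac to Ptprc has its lowest mean with entinostat but overlaps with vehicle through tumour 402.

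The receptor chains were also set against Ptprc (CD45), carried by all nucleated blood cells. Ptprc rose from 782 ± 596 (SD, n = 6) with vehicle to 7873 ± 2357 (n = 5) with entinostat, a fitted log2 difference of 3.55 ± 0.41 (SE; adjusted p = 6.36e-06 by limma). Relative to Ptprc, Trac went from -2.83 ± 0.66 (vehicle) to -4.36 ± 0.63 (entinostat), and Cd3e from -3.24 ± 0.79 to -5.31 ± 0.67 (log2 ratio, SD). Both overlapped through vehicle 402, at -4.10 for Trac and -4.82 for Cd3e, and 3 of 5 entinostat tumours for Trac and 4 of 5 for Cd3e lay below every vehicle tumour. Cd247 and Tcrg-C2 were below all vehicle tumours on this scale in all 5 entinostat tumours. For Trdc the groups overlapped, at -5.87 ± 1.25 and -6.12 ± 0.46, and likewise for Tcrg-C1, at -5.97 ± 0.75 and -6.41 ± 0.67. Vehicle 402 had the highest Ptprc of its group (1957).

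Variable segments, the rearranged parts upstream of the constant regions, gave a second readout of the same chains. Values of single segments were low, and no joining segment had a value above 0 in any library. The 35 Trbv segments summed to 44.6 ± 14.8 with vehicle, 58.8 ± 2.95 at baseline and 164 ± 107 with entinostat (SD), and all entinostat tumours (71.2 to 338) lay above all others. The 128 Trav segments summed to 16.5 ± 8.40 with vehicle and 65.2 ± 53.7 with entinostat, and the groups overlapped because entinostat 421 read 10.5. Trav segments that also carry a delta name were counted in these sums, as alpha. Entinostat 423, with the highest Trac and Trbc2, also had the highest sums, at 149 for Trav over 43 segments and 338 for Trbv.

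Among the 7 gamma segments, Tcrg-V6 (chr13:19190368-19190929, 23173 bases before Tcrg-C1) stood out. It was listed at 0 in all 4 baseline tumours and in 4 of 6 vehicle tumours, where 402 read 2.54 and 414 read 0.64. Entinostat tumours read 18.5, 13.2, 12.4, 8.06 and 19.3 (411, 413, 418, 421 and 423), without overlap. It reached the test level only through 4 entinostat tumours, so no test is given. Tcrg-V6 is best known from the invariant receptor of innate-like gamma-delta T cells of the dermis, reproductive tract and other tissues, where it is paired with the delta segment Trdv4. Trdv4 (chr14:54075004-54075515) read 22.1, 21.6, 23.0, 0 and 24.2 in the same entinostat tumours and at most 5.62 with vehicle and 3.40 at baseline. Trdv4 too reached the test level only through 4 entinostat tumours. The groups overlapped, since entinostat 421 was at 0, although that tumour read 110.3 for Trdc. Tcrg-V5, used by epidermal gamma-delta T cells, was listed at 0 in every library. Tcrg-V4 and Tcrg-V7 were at most 2.46 in every B6 tumour, and Trgv2, which joins Tcrg-C2, ranged from 0 to 29.6 with vehicle and from 1.62 to 32.6 with entinostat.

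**Figure D4:**
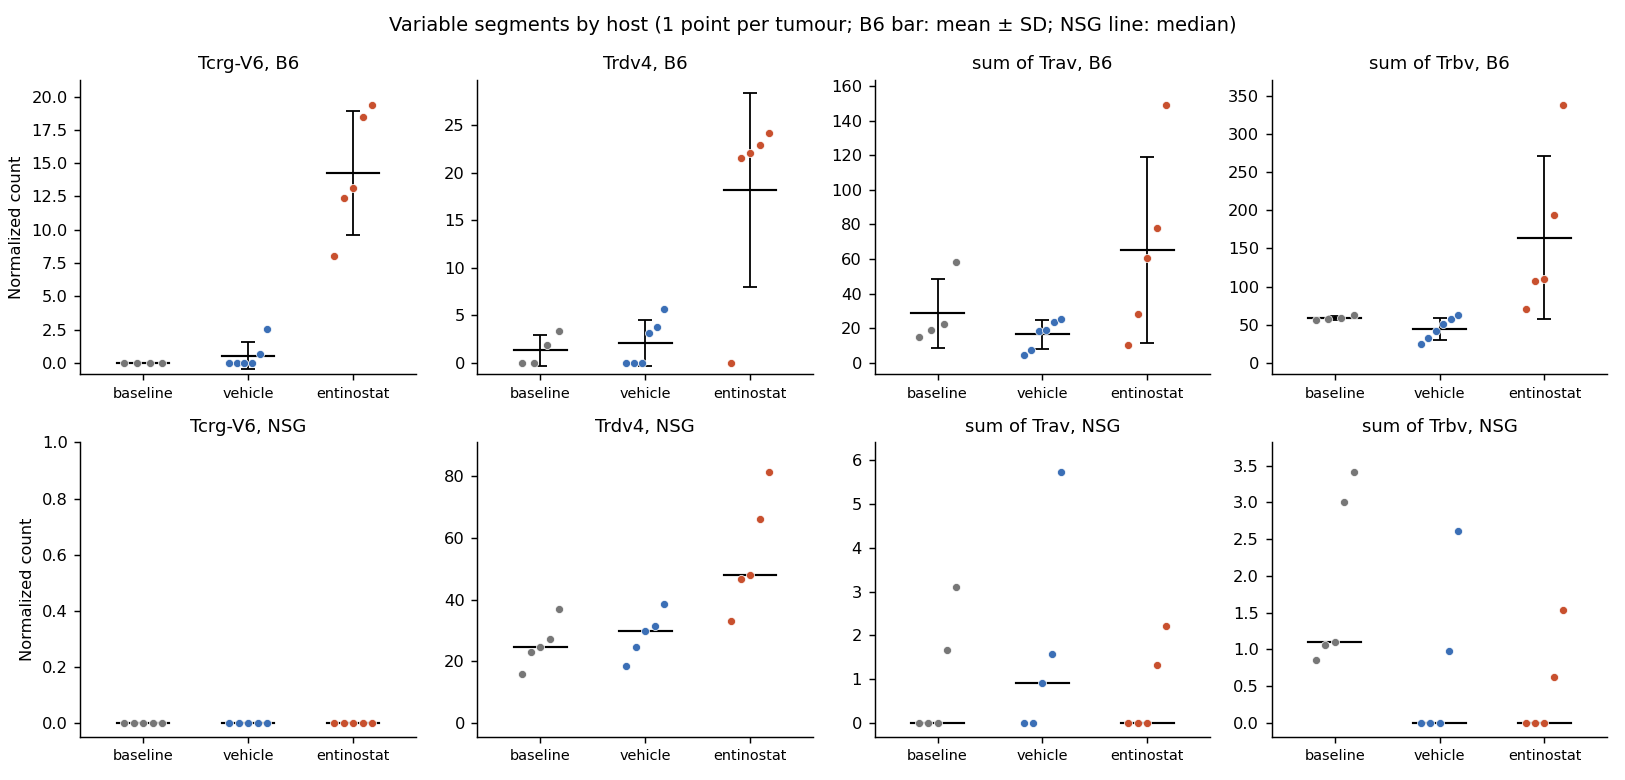
Normalized counts of the gamma segment Tcrg-V6, the delta segment Trdv4 and the sums of Trav and Trbv segments (vertical axes) in every tumour of B6 hosts (upper row, bars mean ± SD) and NSG hosts (lower row, lines at the median), by baseline, vehicle and entinostat group. Tcrg-V6 is at 0 in all NSG tumours and reads 8.06 to 19.3 in B6 entinostat tumours, whereas Trdv4 is present in all NSG tumours.

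Of the 11 genes of the gamma-delta list, 6 reached the test level in B6 tumours, 3 of them (Cd163l1, Blk and Zbtb16) only by counting entinostat tumours. Cd163l1, a scavenger receptor of IL-17-committed gamma-delta T cells, ranged from 0.750 to 8.10 with vehicle, from 0.916 to 5.42 at baseline and from 45.6 to 154 with entinostat. Blk, a Src kinase of B cells and of such gamma-delta T cells, was at most 4.93 with vehicle and 6.77 at baseline and read 10.7 to 80.5 with entinostat. Zbtb16 (PLZF), a regulator of innate-like T cells, was at most 8.13 with vehicle and 11.2 at baseline and ranged from 17.8 to 78.0 with entinostat. All 3 were higher in every entinostat tumour than in any other B6 tumour. Since they entered only by counting entinostat tumours, this is a description and no support for the list. In NSG tumours, whose hosts lack T cells, Zbtb16 read 3.65 to 218.7, Blk at most 10.7 and Cd163l1 0. Of the remaining 3 tested genes none was called higher and 1 was called lower against vehicle, where 29.9% and 26.2% of all tested genes were. Il23r and Ccr6, named after their values were seen, were too low to be tested in the B6 fit. They read 3.24 to 21.6 and 3.53 to 52.4 with entinostat against at most 1.28 and 4.13 with vehicle. Ccr6 reached the test level only in the fit over both hosts, and read 9.03 to 15.7 in NSG baseline tumours. The cytokine Il17a averaged 0.239 with entinostat and 0.308 with vehicle. The summed B cell and plasma cell genes also differed between these groups, as given above, and their part in the Blk value was not tested.

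Most genes that act downstream of the receptor were also called higher. Of 28 TCR signalling genes 27 were tested, 23 were called higher and 1 lower (Bcl10, by -0.35), with a median log2 fold change of 2.22. Over all tested genes 29.9% were called higher and 26.2% lower. Ptprc, Lat (the membrane scaffold that Zap70 phosphorylates, 2.94 ± 0.37) and Vav1 (a guanine nucleotide exchange factor, 3.18 ± 0.46, SE) were among the 4 with the smallest p-values. The fourth, Sit1, a transmembrane adaptor, is 1 of the 23 but reached the test level only by counting entinostat tumours. Zap70 (1.72, adjusted p = 0.000364) and Lck (1.68, adjusted p = 0.00179), the kinases that act on the ITAMs, also rose, and were named after their values were seen. Against baseline neither Zap70 (0.79, limma adjusted p = 0.0705) nor Lck (0.97, limma adjusted p = 0.0658) was called. The host difference was called for Zap70 (1.97, limma adjusted p = 0.0333) but not for Lck (1.16, limma adjusted p = 0.0826). Lck read 46.3 to 215.5 in NSG tumours. Vav1 and Ptprc are also expressed by macrophages. Against baseline 18 of the 27 were called higher and none lower, where 29.1% of all tested genes were called higher. With other scalings, without the filter or without any 1 tumour the count against vehicle stayed between 24 and 25 called.

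T cell surface genes moved likewise against vehicle, with 10 of 11 called higher and none lower, where 29.9% and 26.2% of all tested genes were. Against baseline 7 were called higher and none lower (29.1% of all tested genes higher). The host difference was called for 8, all higher in B6 (23.2% of all tested genes). Cd28 (3.97 ± 0.45), Icos (3.60 ± 0.41), Cd2 (3.16 ± 0.36) and Cd6 (2.70 ± 0.39, SE), co-stimulatory and adhesion receptors, had the smallest p-values of the list, with limma adjusted values of 5.50e-06 to 4.06e-05. Cd4 rose by 2.01 ± 0.63 (adjusted p = 0.013), which no longer passed without the muscle-rich libraries (adjusted p = 0.0844). Vehicle 402 read 600 for Cd4, within the entinostat range of 218 to 791, and the Cd4 host difference was not called (1.58, limma adjusted p = 0.193). In NSG tumours, whose hosts lack T cells, Cd4 read 17.5 to 464 and Thy1 read 1041 to 3618. Cd8a did not pass (0.78 ± 0.38, adjusted p = 0.0913), although Cd8b1, its partner chain, did (2.15 ± 0.34).

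The list of other ITAM genes holds Tyrobp and Fcer1g, adaptors of NK and Fc receptors, Cd79a and Cd79b, the signalling chains of the B cell receptor, and Syk, a kinase that binds ITAMs. Tyrobp rose by 4.84 ± 0.54, Fcer1g by 3.94 ± 0.49, Cd79b by 3.89 ± 0.64 and Syk by 3.61 ± 0.37 (log2, SE, limma adjusted p = 2.06e-06 to 0.000143), while Cd79a reached the test level only by counting entinostat tumours. Fcer1g averaged 1250 with vehicle and 14880 with entinostat, alongside the macrophage genes. Of 10 NK and innate lymphoid genes 8 were tested, 5 were called higher and 3 lower, against 29.9% and 26.2% of all tested genes. Of the 5, Klrb1c reached the test level only by counting entinostat tumours. Klrk1 and Klrd1, receptors that T cells can also carry, rose by 2.65 and 2.26, whereas the cytotoxic granule enzyme Gzma fell by 3.64 on the log2 scale, from 877 ± 487 (n = 6) to 64.3 ± 42.8 (n = 5, SD). Ncr1, the defining NK receptor, was too low to be tested, at 0 to 17.0 in B6 tumours.

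Of 9 tested regulators of the receptor loci 2 were called higher and 4 lower, with a median of -0.01. Of all tested genes 29.9% were called higher and 26.2% lower, so calls in both directions are not particular to this list. Of the 2, Lef1 reached the test level only by counting entinostat tumours. Runx3 rose by 1.64, while Gata3 fell by 2.70, Bcl11b by 2.01, Tcf12 by 0.68 and Tcf3 by 0.56 on the log2 scale. Gata3 and Bcl11b averaged 1412 and 325 in NSG entinostat tumours, whose hosts lack T cells. Of the 4 rearrangement genes none reached the test in B6 tumours: Rag1 and Rag2 were listed at 0 in all entinostat tumours.

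Over the 15 B6 tumours, Pearson correlations of deviations from the group means (log2 scale) were 0.924 for Trbc1 with Cd3g, 0.909 for Cd3d with Cd3g and 0.889 for Trbc2 with Cd3d. Trdc had 0.613 with Trac, 0.533 with Tcrg-C1 and 0.113 with Trbc2. Tcrg-C2 had 0.881 with Cd3e, and Cd247 had 0.0422 with Cd3d and -0.233 with Cd3g. The points share their libraries and normalization, so these values are descriptions only. Outside the set, the genes most like Cd3e were Ctsw (0.919), Cd8b1 (0.875), Lta (0.846), Mir99ahg (0.829) and Mllt6 (0.829). Those most like Trdc were Runx3 (0.886), Cd80 (0.886), Pcdh18 (0.872), Mroh2a (0.871) and Hp1bp3 (0.863).

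NSG tumours show these transcripts in hosts without T cells. Tcrg-C1 was listed at 0 in all 15 tumours, Tcrg-C2 and Cd3g in 14 each (with 1.94 in NSG_Non-Treatment_323 and 1.103 in NSG_Entinostat_306), and Cd3e was at most 6.76. Trbc1 was at most 9.74. Trac, in contrast, ranged from 33.5 to 75.8 over the NSG tumours and Trdc from 10.6 to 80.4, while Trav segments summed to at most 5.73. Trdv4, 67335 bases before Trdc, read 16.0 to 36.8 at baseline, 18.5 to 38.5 with vehicle and 33.1 to 81.2 with entinostat in NSG tumours. Its log2 difference with entinostat was 0.895 against vehicle and 1.06 against baseline (limma adjusted p = 0.682 and 0.0893). The host difference in its entinostat against vehicle change was not called either (1.58, limma adjusted p = 0.198). No gamma segment had a value above 0 in NSG tumours. Cd247 ranged from 95.2 to 305.7 in NSG tumours, next to Pou2f1 at 336 to 1007. Levels are not compared between hosts, since the 2 tables were normalized separately.

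**Figure D5:**
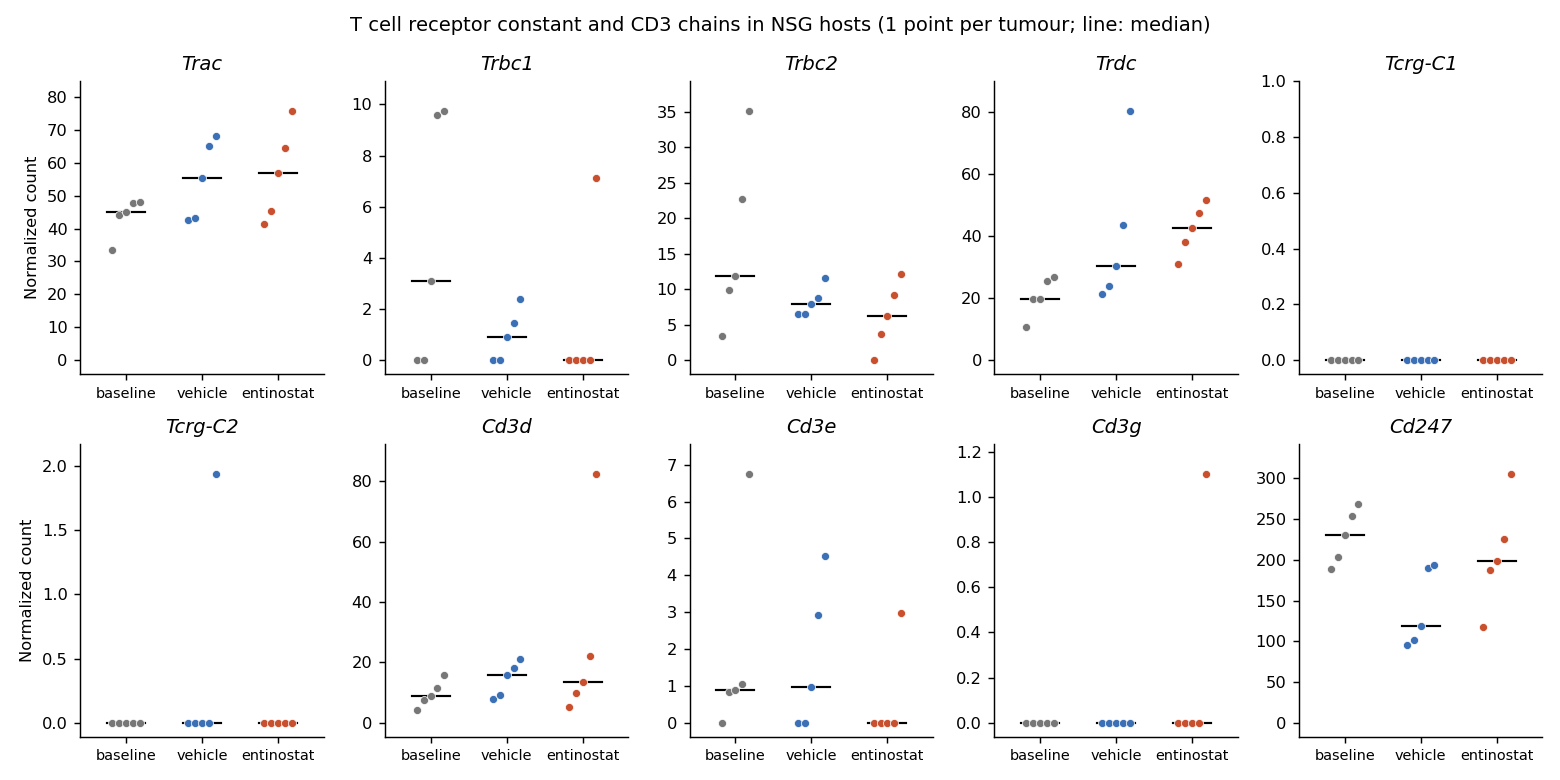
Normalized count of each chain (vertical axes, 1 scale per gene) in every NSG tumour (n = 5 per group), with a line at the group median. Tcrg-C1 is at 0 throughout, Tcrg-C2 and Cd3g have 1 value each above 0, and Trac, Trdc and Cd247 have reads in all 15 tumours.

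In NSG mice only Trac, Trbc2, Trdc, Cd3d and Cd247 reached the level for testing, and none was called against vehicle, where none of 17752 genes was called (0%), with 1287 genes at an unadjusted p under 0.05 and a lowest adjusted p of 0.168. Their log2 fold changes ran from -0.75 (Trbc2) to 0.56 (Cd247). Trdc read 30.9 to 51.8 with entinostat, 21.4 to 80.4 with vehicle and 10.6 to 26.9 at baseline, and its difference from baseline (2.07-fold) was not called (limma adjusted p = 0.117). Against baseline 0 of 5 were called with entinostat (0.406% of all genes) and 0 of 5 with vehicle (13.0% of all genes). Cd3d was 82.6 in NSG_Entinostat_319, the library with the fewest reads, and 5.35 to 22.1 in the other 4. Without that library its fold change against vehicle turned from 0.31 to -0.24.

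The difference between hosts in the entinostat against vehicle change was fitted over all 30 tumours. It was called for 7 of the 10 chains, all higher in B6, where 23.2% of 18892 genes were called higher. Tcrg-C1 had 3.11 ± 0.57 (SE, limma adjusted p = 9.47e-05), Trdc 3.08 ± 0.64 (adjusted p = 0.000434), Trbc2 2.63 ± 0.73 (adjusted p = 0.00517), Cd3e 2.16 ± 0.70 (adjusted p = 0.0143), Cd3d 2.0 ± 0.67 (adjusted p = 0.0178), Trac 1.99 ± 0.38 (adjusted p = 0.000148) and Cd3g 1.62 ± 0.45 (adjusted p = 0.00539). Trbc1 (1.92, adjusted p = 0.0893), Tcrg-C2 (0.76, adjusted p = 0.237) and Cd247 (0.68, adjusted p = 0.232) were not called. Trbc1 was called with 5 added (1.65, adjusted p = 0.0136), and without vehicle 424 or NSG_Entinostat_315 (adjusted p = 0.0488 and 0.0166). Cd3e was not called under quantile (1.30, adjusted p = 0.0545) or cyclic loess scaling (1.43, adjusted p = 0.0557). For chains listed at 0 in NSG tumours, such as Tcrg-C1, this difference is the change in B6 mice itself.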

How the data were processed

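RNA was sequenced from BBN963 tumours with a stranded mRNA kit, per the labels' protocols. The authors' tools were STAR and DESeq2 with build mm10, per the submitters' processing notes, which give no versions. How reads were counted, and whether strand was used, is not given in the sources used here. The signal values the authors deposited are DESeq2-normalized counts, 1 table per host. Whole reads could not be recovered from them (49.9 to 80.1% of low values lay within 0.05 read of a whole number), so no count model was run. Depth was estimated from the most common low value, taken as 1 read.

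Symbols came from a name table by Ensembl ID, matching 47187 of 47606 rows, and coordinates and promoters from RefSeq GRCm38.p6. limma 3.58.1 (R 4.3.3) was fitted to log2(value + 1) with a trend and robust variance, the 3 groups of a host in 1 fit, and all 30 libraries in 1 fit for the host difference (values of at least 10 in at least 4 libraries). The fit was checked on simulated data. Python 3.11.15 with pandas 2.3.3, numpy 2.4.6 and matplotlib 3.10.9 did the rest. Ratios and segment sums are descriptions with no test.

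The members and lists were chosen with earlier results of these data known. Named genes are the 10 chains, the 2 to 4 genes with the smallest p in B6 entinostat against vehicle of each list, Ptprc, Cd4, Cd8a, Fcer1g and Ncr1 as references, and the 5 genes most like Cd3e and Trdc (level of at least 20 in 1 group, predicted genes passed over). Alternatives were other added counts, filters, scalings, variance models, fits of 2 groups, and leaving out each tumour. Leaving out the muscle-rich libraries was chosen after seeing the data. The receptor and exome libraries were not analysed here. The values of 1 gene of the gamma-delta list are not reported here.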

Additional observations from a re-analysis of the deposited data

Results flagged for a closer look

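The entinostat against vehicle change differed between hosts for 7 chains in the fit over both tables. The B6 minus NSG difference in log2 fold change was 3.11 for Tcrg-C1, 3.08 for Trdc, 2.63 for Trbc2, 2.16 for Cd3e, 2.0 for Cd3d, 1.99 for Trac and 1.62 for Cd3g.

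Within groups, 20 of 127 sets of levels or log2 ratios held 1 tumour whose gap to the nearest other exceeded Dixon's 95% limit. Chance gives this in about 1 set in 20 where sets are independent and normally distributed. These sets share tumours and genes, and a set with a single value above 0 is always flagged. The count therefore cannot be weighed against that rate. In B6 vehicle tumours, 424 was high for Trbc1 (210.4), 405 low for Cd3d (42.9) and 402 high for Tcrg-V6 (2.54). Vehicle 402, which had the highest Ptprc of its group, was low in the log2 ratios to Ptprc of Trac (-4.10), Tcrg-C2 (-5.17), Cd3d (-4.14) and Cd3e (-4.82).

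In B6 baseline tumours, 415, which was muscle-rich, was high for Cd3g (322) and for the log2 ratio of Cd3g to Cd3e (1.63), and low for the log2 ratio of both gamma to both beta constant regions (-2.64). Baseline 416 was low in the ratio of Trac to Ptprc (-2.47). Entinostat 421 was low in the log2 ratio of Cd247 to Cd3e (-0.17) and for Trdv4 (0).

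In NSG tumours, Trac was low in NSG_Baseline_305 (33.5) and Cd3d was high in NSG_Entinostat_319 (82.6), the library with the fewest reads. The other 5 NSG values were all under 10: Trbc1 in NSG_Entinostat_315 (7.104), Tcrg-C2 in NSG_Non-Treatment_323 (1.94), Cd3e in NSG_Baseline_320 (6.76) and NSG_Entinostat_312 (2.97), and Cd3g in NSG_Entinostat_306 (1.103).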

How the results depend on the processing

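Of the 10 chains, 9 were called in B6 entinostat against vehicle under each scaling, added count, variance model and 2-group fit. The count was also 9 under each filter and without any 1 tumour, and 8 without the 3 muscle-rich libraries. Under the filter of at least 50, however, Trdc and Tcrg-C1 entered only by counting entinostat tumours. Their highest values in the other B6 tumours were 28.95 (vehicle 408) and 19.68 (vehicle 402). Their calls under that filter are therefore no test. Against baseline the count of chains called was 5 to 9 without 1 tumour and 4 without the muscle-rich libraries. In NSG vehicle against baseline it was 1 (Cd247) when only those 2 groups were fitted, and 0 to 1 without 1 tumour. As a share of all tested genes, B6 vehicle against baseline had 0.00586% called under quantile scaling and 0 to 0.0118% without 1 tumour, and NSG entinostat against vehicle 0 to 0.00567%. NSG entinostat against baseline, with 0.406%, gave 0.248% without trend and robust variance, 3.44% with only the 2 groups, 0.907% with 5 added, 1.78% under quantile scaling and 0 to 5.32% without 1 tumour. NSG vehicle against baseline, with 13.0%, gave 4.75% without the filter and 0 to 20.9% without 1 tumour. The cause was not tested.

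The chains' values that changed sign were not called. Trdc in B6 vehicle against baseline was -0.37 to 0.4 without 1 tumour (-0.37 without baseline 426, -0.25 without vehicle 408, -0.22 without vehicle 414). Tcrg-C2 there was -0.2 to 0.17 (0.04 without vehicle 402, 0.17 without vehicle 405), and 0.01 under quantile scaling. Trac in NSG entinostat against vehicle was -0.07 to 0.14 without 1 tumour and -0.03 under both quantile and cyclic loess scaling, and Cd3d there was -0.24 to 0.69. The Tcrg-C2 host difference was -0.03 under quantile scaling. Quantile scaling moved the median log2 fold change of all genes in B6 entinostat against vehicle from -0.01 to -0.16. With 5 added, the baseline log2 ratio of Tcrg-C1 to Trbc1 plus Trbc2 was -5.18, and those of Trdc and Tcrg-C1 to Ptprc were -5.75 and -6.22.

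No paired analysis was possible because no 2 treatment groups share tumour numbers. Values under about 10 rest on a few reads, and whether a chain listed at 0 was absent cannot be told at this depth.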
